A study of Mus musculus with 16 samples.

Results

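Immediate early genes other than the AP-1 and ATF3 factors were followed in quadriceps muscle of mice with and without HDAC3. The genes were taken by name from both deposited tables of gene values, and all 10 (Egr1, Nr4a1, Nr4a3, Ier2, Ier3, Ier5, Btg2, Csrnp1, Cyr61 and Otud1) were found among 24327 usable rows. The authors had tested 9 of them after running and 8 at rest. Ier2 was tested in neither condition and Egr1 was not tested at rest.

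The series compared HDAC3-KO mice after running, wild-type mice after running, HDAC3-KO mice at rest and wild-type mice at rest. Each of these 4 groups had 3 RNA-seq libraries. All mice were males of strain background C57B/6 aged 4 months. Running was on a treadmill in 3 bouts of 1 h at 10 m/min with 1 h between bouts, and tissue was taken 2 h after the last bout. How and in which cells Hdac3 was deleted is not stated in the labels, and neither is whether each library had its own animal. The p-values below therefore cover only the spread between these libraries, which may be technical. Values are FPKM, fragment counts scaled by transcript length and library size, so levels can be set side by side between genes. Read depth was unknown.

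Immediate early genes are switched on within minutes of a stimulus without new protein synthesis. Signals through the ERK kinases reach serum response factor, and signals through cyclic AMP and calcium reach the factor CREB. In muscle, contraction, stretch and adrenergic stimulation are known inducers. HDAC3 is a histone deacetylase that works within the NCoR and SMRT corepressor complexes.

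Hdac3 itself measured 5.32, 6.37 and 4.13 FPKM in knockout libraries after running, against 31.0, 32.0 and 27.6 FPKM in wild-type libraries. At rest the values were 5.51, 6.29 and 8.16 FPKM in knockout, against 33.3, 31.0 and 23.7 FPKM in wild type. It fell in both conditions in limma's test on log2(FPKM + 1), by 2.33 after running (SE 0.15, adjusted p = 0.00111) and by 1.99 at rest (SE 0.17, adjusted p = 0.00487). Summed skeletal muscle markers lay between 58418 and 80957 FPKM in every library. Pearson correlations of log2(FPKM + 1) between libraries of a group lay between 0.969 and 0.985 across 8946 genes.

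Upstream sequences were matched to 8 of the 10 genes in RefSeq (GRCm38.p6), Cyr61 under its current symbol Ccn1. Egr1 and Ier2 had no window here and were not searched. The window was the 250 bases before the annotated start site, and Csrnp1 had 4 such windows. The core of the CREB site, TGACG, was searched on both strands. It occurred in 9 of the 11 windows of these genes (6 of the 8 genes), against 17.8% of all 32851 upstream windows of the table. A gene with several windows has more chances to hold a match, and the Csrnp1 windows lie close together. The windows compared were not matched for base composition, which affects how often TGACG occurs, so enrichment was not tested. At least 1 window follows for each gene with a match (for Csrnp1 the window with 2 matches), with TGACG or its reverse complement in capitals.
Nr4a1 (chr15:101266596-101266845, plus strand): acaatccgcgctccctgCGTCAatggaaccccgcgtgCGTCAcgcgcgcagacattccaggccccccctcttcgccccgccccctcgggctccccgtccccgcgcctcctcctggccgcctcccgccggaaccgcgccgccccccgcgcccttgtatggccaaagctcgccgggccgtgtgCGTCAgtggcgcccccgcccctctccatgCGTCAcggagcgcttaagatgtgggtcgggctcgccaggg
Nr4a3 (chr4:48045055-48045304, plus strand): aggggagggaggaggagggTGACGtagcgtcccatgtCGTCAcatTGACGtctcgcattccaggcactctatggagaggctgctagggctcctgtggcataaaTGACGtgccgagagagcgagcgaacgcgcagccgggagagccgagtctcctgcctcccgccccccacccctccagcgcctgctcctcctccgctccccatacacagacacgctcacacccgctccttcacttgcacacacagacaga
Btg2 (chr1:134079156-134079405, minus strand): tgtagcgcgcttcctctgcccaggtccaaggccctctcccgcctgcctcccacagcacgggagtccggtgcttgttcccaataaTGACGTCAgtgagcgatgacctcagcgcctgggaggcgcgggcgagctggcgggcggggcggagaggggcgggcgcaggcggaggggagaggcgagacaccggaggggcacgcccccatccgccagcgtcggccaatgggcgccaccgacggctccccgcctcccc
Csrnp1 (chr9:119983780-119984029, minus strand): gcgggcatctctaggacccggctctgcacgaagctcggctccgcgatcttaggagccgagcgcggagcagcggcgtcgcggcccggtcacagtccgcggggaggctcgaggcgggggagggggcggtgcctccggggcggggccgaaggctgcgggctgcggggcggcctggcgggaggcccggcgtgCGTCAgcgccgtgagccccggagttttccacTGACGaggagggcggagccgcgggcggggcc
Cyr61 (chr3:145649986-145650235, minus strand): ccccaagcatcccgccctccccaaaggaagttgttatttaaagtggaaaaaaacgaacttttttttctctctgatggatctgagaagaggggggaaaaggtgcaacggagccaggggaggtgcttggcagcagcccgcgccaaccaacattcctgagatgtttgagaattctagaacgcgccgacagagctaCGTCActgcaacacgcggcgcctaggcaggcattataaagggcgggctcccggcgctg
Otud1 (chr2:19657481-19657730, plus strand): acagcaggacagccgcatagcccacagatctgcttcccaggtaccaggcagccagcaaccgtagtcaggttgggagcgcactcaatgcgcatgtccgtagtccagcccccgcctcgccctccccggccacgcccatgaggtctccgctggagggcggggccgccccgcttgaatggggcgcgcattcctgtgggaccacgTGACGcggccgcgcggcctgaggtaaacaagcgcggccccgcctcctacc
Nr4a1 and Nr4a3 held 4 matches each, and the 2 matches of Btg2 overlap within 1 full palindromic site, TGACGTCA, a motif found in 1.55% of windows. Cyr61 and Otud1 held 1 match each, 58 and 50 bases before the start site. Every Csrnp1 window held at least 1 match, and those of Ier3 and Ier5 held none. A CArG box, the serum response factor motif, was searched only in its exact consensus form (1.47% of windows) and was in none of these windows. At that share, finding none in 11 windows says little about these genes, and nothing about Egr1 and Ier2. The AP-1 motif TGANTCA (6.75% of windows) was in 1 Csrnp1 window. A match describes letters in a window and not a bound site.

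**Figure D1:**
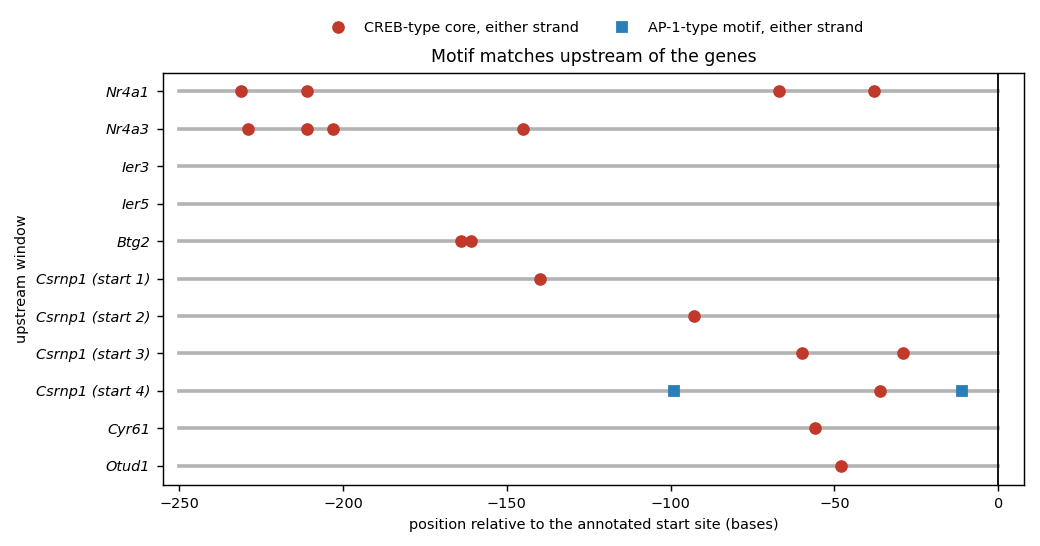
Positions of TGACG (circles) and TGANTCA (squares) on either strand in the 250 bases before each annotated start site, 1 row per window with Csrnp1 in 4 rows; the x axis is the distance from the start site in bases. Nr4a1 and Nr4a3 hold 4 circles each, while Ier3 and Ier5 hold none.

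The transcription factors of the set did not share 1 pattern. Nr4a1, the orphan nuclear receptor Nur77, was lower in every knockout library than in every wild-type library after running. It measured 12.2, 14.8 and 10.9 FPKM in knockout libraries, against 18.8, 26.7 and 17.0 FPKM in wild-type libraries. The groups did not overlap (12.7 ± 1.99 against 20.8 ± 5.16 FPKM, SD, n = 3 each). The log2 difference was -0.66 (SE 0.19, unadjusted p = 0.00772, limma adjusted p = 0.106), so the gene missed the threshold of 0.05 after adjustment over all genes. The q-value in the authors' deposited table was 0.00432.

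At rest Nr4a1 overlapped fully between genotypes. It measured 27.4, 15.6 and 35.0 FPKM in knockout libraries, against 16.9, 24.1 and 42.2 FPKM in wild-type libraries (log2 difference -0.06, SE 0.37, limma adjusted p = 0.946). Its knockout effect differed between running and rest by -0.60 (SE 0.46, limma unadjusted p = 0.222, adjusted p = 0.915), so a difference between conditions was not established.

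Nr4a3, the related receptor NOR-1, varied more between libraries of 1 group than between groups. It ran from 0.285 FPKM in knockout resting library 2 to 16.4 FPKM in wild-type running library 1, the widest spread of the 10 genes (57.4-fold). Levels after running were 11.3, 10.7 and 5.34 FPKM in knockout, against 16.4, 3.66 and 12.7 FPKM in wild type. Resting levels were 12.4, 0.285 and 5.50 FPKM in knockout, against 1.69, 9.78 and 14.7 FPKM in wild type. The genotypes overlapped in both conditions (limma adjusted p = 0.931 after running and 0.725 at rest).

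Egr1, a zinc-finger factor that switches on later response genes, was low in most libraries. After running it measured 4.26, 1.02 and 1.23 FPKM in knockout, against 6.61, 0.575 and 0.772 FPKM in wild type. Library 1 of each genotype was the high one. At rest it measured 0.926, 0.200 and 2.06 FPKM in knockout, against 0.611, 0.735 and 0.544 FPKM in wild type. The log2 difference after running was 0.05 (SE 0.62, limma adjusted p = 0.974).

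Csrnp1, a nuclear protein with cysteine- and serine-rich stretches that acts as a transcription factor, turned on 1 library after running. It measured 4.35, 1.09 and 1.53 FPKM in knockout, against 15.8, 1.90 and 1.90 FPKM in wild type. Outside wild-type library 1, the genotypes overlapped. Resting levels were 1.17, 1.21 and 3.70 FPKM in knockout, against 0.653, 0.714 and 1.16 FPKM in wild type. There the groups just failed to overlap, with 1.17 FPKM as the lowest knockout value and 1.16 FPKM as the highest wild-type value. The authors' deposited table gave q = 0.00132 for lower after running and q = 0.0127 for higher at rest. limma called neither (adjusted p = 0.57 after running and 0.31 at rest).

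Of the IER genes, Ier3 and Ier5 were higher in every knockout library at rest. Ier3, a stress-inducible protein that modulates cell death, measured 7.96, 12.6 and 13.5 FPKM in knockout, against 6.71, 2.84 and 4.97 FPKM in wild type. The log2 difference was 1.11 (SE 0.28, unadjusted p = 0.00519, limma adjusted p = 0.0749). With 1 fit over all 12 libraries Ier3 passed at rest (limma adjusted p = 0.0375), the 1 limma call among these genes under any setting. In that same fit fewer genes had an unadjusted p under 0.05, with 2 at rest (Ier3 and Cyr61) and 0 after running, where Nr4a1 had an adjusted p of 0.26 in limma. After running Ier3 measured 10.1, 4.60 and 6.44 FPKM in knockout, against 5.27, 4.95 and 4.54 FPKM in wild type, with overlap (limma adjusted p = 0.396).

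Ier5 encodes a nuclear protein that takes part in the heat shock response. At rest it measured 5.51, 5.25 and 9.72 FPKM in knockout, against 3.53, 3.94 and 3.67 FPKM in wild type (log2 difference 0.69, SE 0.21, limma adjusted p = 0.116). Levels after running were 6.23, 6.15 and 7.07 FPKM in knockout, against 17.9, 3.52 and 3.61 FPKM in wild type. All knockout libraries lay between wild-type library 1 above them and wild-type libraries 2 and 3 below them. Without wild-type library 1 the difference after running was 0.71 (SE 0.15, limma adjusted p = 0.0765), against 0.03 (SE 0.50, adjusted p = 0.985) with it.

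Ier2, which shares a protein domain with Ier5, stayed between 0.184 and 1.51 FPKM. After running it measured 0.944, 1.03 and 0.595 FPKM in knockout, against 1.51, 1.14 and 1.18 FPKM in wild type. Resting levels were 0.184, 0.876 and 0.721 FPKM in knockout, against 0.972, 0.292 and 1.07 FPKM in wild type. After running every knockout library lay below every wild-type library, but at these levels the authors had no test in either condition.

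Btg2, Cyr61 and Otud1 act outside DNA binding, and each had its highest value in wild-type running library 1. Btg2 restrains cell division and recruits the CCR4-NOT deadenylase complex. At rest it measured 8.97, 9.18 and 17.5 FPKM in knockout, against 5.54, 6.06 and 5.04 FPKM in wild type. The groups did not overlap, and the log2 difference was 0.92 (SE 0.24, unadjusted p = 0.00555, limma adjusted p = 0.0769). Levels after running were 21.0, 12.1 and 12.8 FPKM in knockout, against 37.0, 7.19 and 6.23 FPKM in wild type. Without wild-type library 1 the running difference was 1.04 (SE 0.24, limma adjusted p = 0.0867), against 0.27 (SE 0.58, adjusted p = 0.832) with it.

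Cyr61, now named Ccn1, is a secreted matricellular protein that binds integrins and is a known target of YAP. Resting levels were 25.7, 33.2 and 48.5 FPKM in knockout, against 6.92, 21.5 and 12.4 FPKM in wild type. Here too every knockout library was above every wild-type library (log2 difference 1.42, SE 0.38, limma adjusted p = 0.0848). After running it measured 14.4, 29.0 and 32.6 FPKM in knockout, against 89.8, 17.1 and 11.1 FPKM in wild type. The running difference was -0.12 (SE 0.68, limma adjusted p = 0.94), and 0.76 (SE 0.34, limma adjusted p = 0.326) without wild-type library 1.

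Otud1, a deubiquitinating enzyme, had the highest single value of the set. Levels after running were 13.4, 9.57 and 5.97 FPKM in knockout, against 174.8, 9.69 and 8.30 FPKM in wild type. In wild type, 1 library stood far above the other 2, which lay within the knockout range. At rest it measured 16.4, 4.62 and 39.3 FPKM in knockout, against 5.49, 17.4 and 11.8 FPKM in wild type. The authors' deposited table gave q = 0.00132 for lower after running and q = 0.00119 for higher at rest. limma called neither (adjusted p = 0.497 and 0.755), and without wild-type library 1 the running difference was 0.03 (SE 0.28, limma adjusted p = 0.97).

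**Figure D2:**
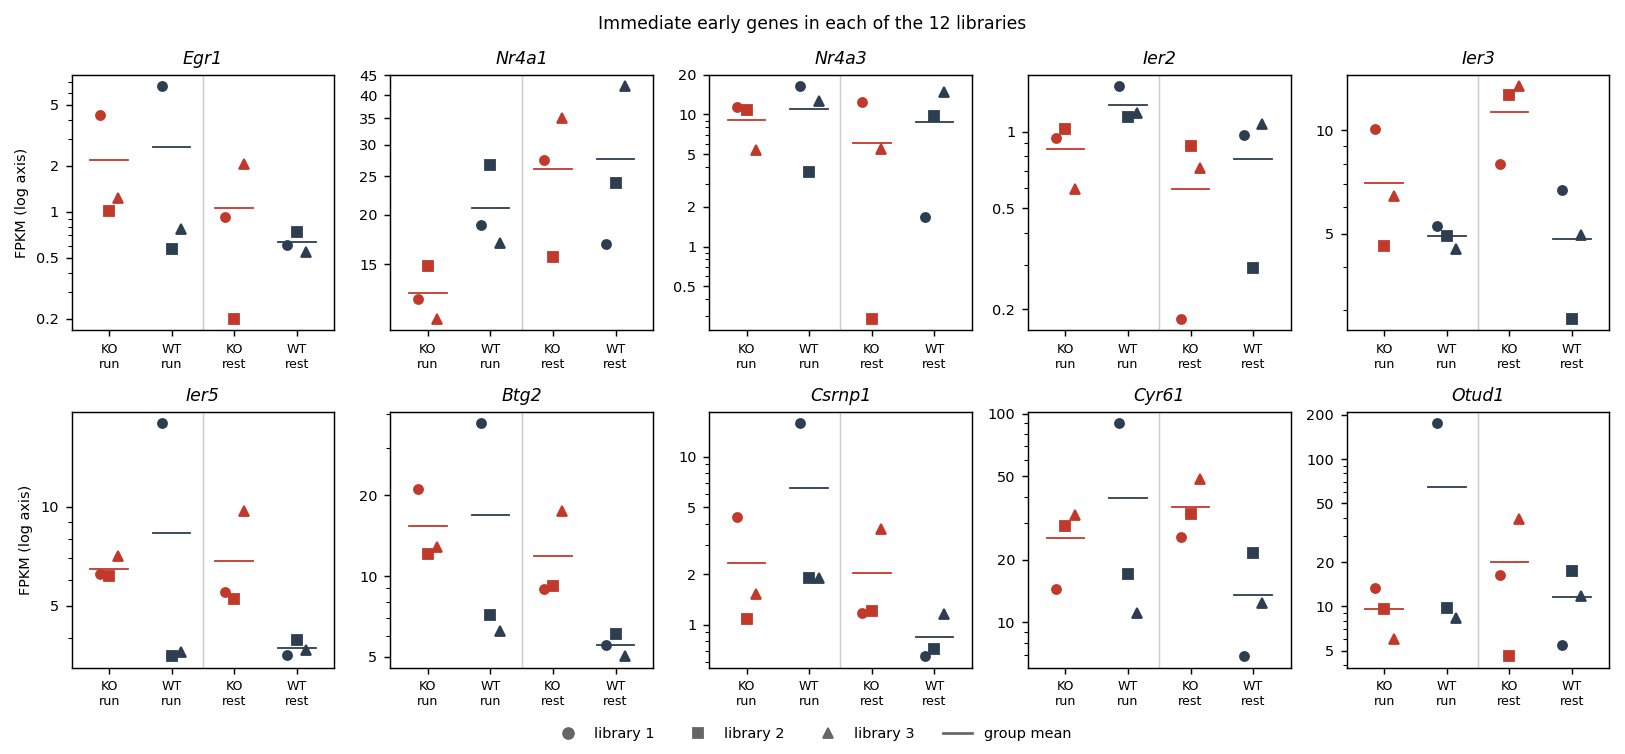
FPKM of each gene on a log axis in the 12 libraries, by genotype (KO, red; WT, dark) and condition, with 1 marker shape per library number and a line at each group mean. Wild-type running library 1 is far above its group in Ier5, Btg2, Csrnp1, Cyr61 and Otud1, whereas Nr4a1 after running separates the genotypes without it.

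Across the set, the knockout comparison at rest leaned to higher values, and no gene passed limma. At rest, 6 of 8 tested genes were called higher in the authors' deposited table (Ier3, Ier5, Btg2, Csrnp1, Cyr61 and Otud1), against 5.9% of 9204 tested genes, and 0 were called lower, against 4.94%. In 5 of 8 (Ier3, Ier5, Btg2, Csrnp1 and Cyr61) every knockout library was above every wild-type library, against 15.6% of all tested genes. limma called 0 of 8 at rest, against 4.72% of all genes tested (3.04% higher and 1.67% lower in knockout), and 4 (Ier3, Ier5, Btg2 and Cyr61) had an unadjusted p under 0.05, against 21.5% of all genes. The median log2 difference of the 8 was 0.66, against 0.01 for all genes tested. Nr4a1 (-0.06) and Nr4a3 (-0.68) went lower, and Otud1 turned to -0.22 without knockout library 3. Ier5, Btg2, Csrnp1, Cyr61 and Otud1 had like profiles over the same libraries, so these counts are not of independent genes.

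After running the same comparison gave no common direction. The authors' deposited table called 4 of 9 tested genes lower (Nr4a1, Csrnp1, Cyr61 and Otud1), against 4.91% of 9037 tested genes, and 0 higher, against 4.66%. limma called 0 of 9, against 3.73% of all genes tested (1.58% higher and 2.15% lower in knockout), and 1 (Nr4a1) had an unadjusted p under 0.05, against 19.9%. Nr4a1 was also the 1 tested gene whose knockout libraries were all below wild type, against 13.7% of all genes. The median log2 difference of the 9 was -0.09, against -0.0007 for all genes tested. Csrnp1, Cyr61 and Otud1 were called in opposite directions in the 2 conditions in the authors' deposited table. limma found 0 of 9 tested genes with a difference between the knockout effects of the 2 conditions (0 with an unadjusted p under 0.05), against 0% of 9373 genes (466 with an unadjusted p under 0.05). The interaction estimates ran from -1.80 (SE 1.41) for Otud1 to 0.58 (SE 1.19) for Nr4a3.

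**Figure D3:**
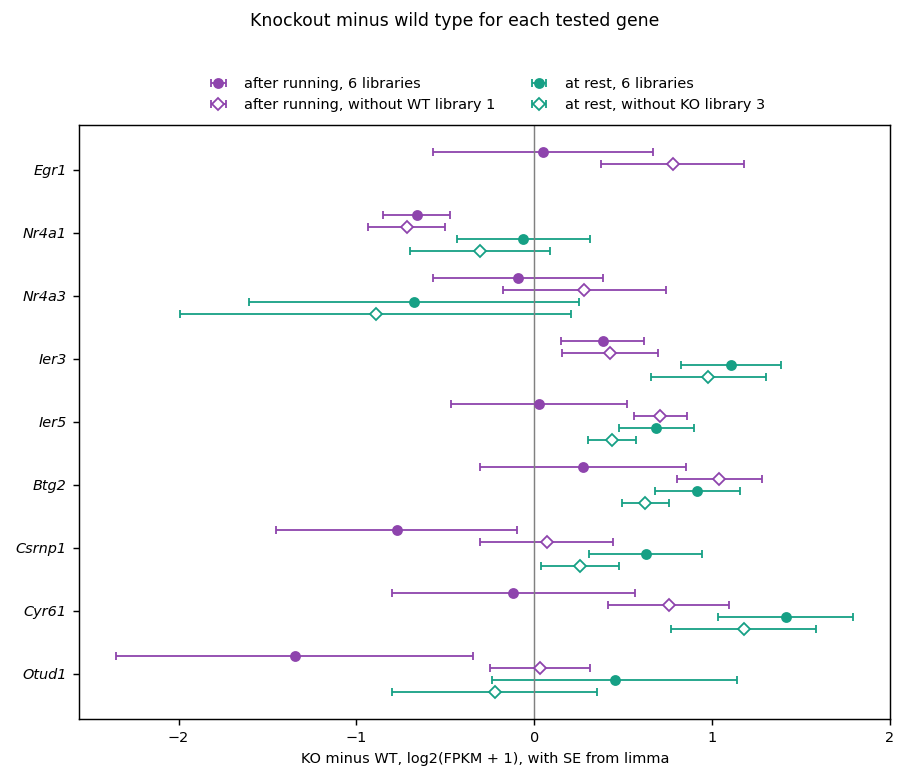
KO minus WT on the log2(FPKM + 1) scale for the 9 tested genes, with SE bars from limma; purple marks running and green rest, filled circles use 6 libraries and open diamonds leave out wild-type running library 1 or knockout resting library 3. Leaving out that wild-type library moves Otud1 to 0.03 and Csrnp1 to 0.07, while Nr4a1 stays at -0.72.

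Single libraries carried much of this spread. In wild-type running library 1, 6 of 9 tested genes (Egr1, Ier5, Btg2, Csrnp1, Cyr61 and Otud1) were over 2-fold above both other libraries of the group, against 1.24% of 9037 tested genes in that library. Relative to the mean of those 2 libraries it held 19.4 times the Otud1 level, 9.81 times the Egr1 level, 8.31 times the Csrnp1 level, 6.38 times the Cyr61 level, 5.51 times the Btg2 level and 5.02 times the Ier5 level. For Nr4a1 the same ratio was 0.863 and for Ier3 it was 1.11. Knockout running library 1 stood out in the same way for 2 genes (Egr1 and Csrnp1, against 0.874% of tested genes) and knockout resting library 1 for 1 (Nr4a3, against 0.739%). Other libraries were over 2-fold below both others of their group. Nr4a3 and Otud1 were that low in knockout resting library 2 (2 of 8, against 0.847% of tested genes) and in wild-type resting library 1 (2 of 8, against 1.20%). The same held for Cyr61 in knockout running library 1, and for Nr4a3 in knockout running library 3 and wild-type running library 2. In knockout resting library 3, 2 of 8 tested genes (Csrnp1 and Otud1) were over 2-fold above both others, against 0.337% of 9204 tested genes. Without that library, the resting differences were 0.26 for Csrnp1 and -0.22 for Otud1, but 0.98 for Ier3, 0.625 for Btg2, 1.18 for Cyr61 and 0.44 for Ier5. None of these genes passed limma without it.

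Levels in the 2 conditions come from tables normalised separately, so running was not tested against rest. The median of all genes tested in both tables shifted by -0.026 on the log2 scale in knockout and by 0.0008 in wild type. In wild-type libraries 2 and 3 after running, Btg2 (7.19 and 6.23 FPKM) and Ier5 (3.52 and 3.61 FPKM) lay close to the resting wild-type ranges of 5.04 to 6.06 FPKM and 3.53 to 3.94 FPKM. Not all genes did so. Csrnp1 (1.90 and 1.90 FPKM) and Ier2 (1.14 and 1.18 FPKM) lay above their highest resting wild-type values of 1.16 and 1.07 FPKM. Nr4a1 in knockout was lower in every running library (10.9 to 14.8 FPKM) than in every resting library (15.6 to 35.0 FPKM). How many of all genes were separated in this way between conditions was not counted, so no effect of running is read from it. In order of group means, Egr1, Nr4a3, Ier2, Ier5, Btg2, Csrnp1, Cyr61 and Otud1 were highest in wild-type running muscle. Without wild-type running library 1, only Ier2 of these 8 kept that rank. Wild-type running muscle was then lowest of the 4 groups for Ier5 (3.57 FPKM) and Otud1 (8.99 FPKM), and next to lowest for Egr1, Nr4a3, Btg2, Csrnp1 and Cyr61. With all libraries, Nr4a1 was highest in wild-type resting muscle and Ier3 in knockout resting muscle. Group means that were neighbours in that order were further apart than the sum of their SDs in 3 cases. These were Nr4a1 between knockout and wild type after running, and Btg2 between knockout and wild type at rest. The last was Ier5 between knockout after running and wild type at rest, which were normalised separately. The resting genotypes, though not neighbours, were also that far apart for Ier3 (11.4 ± 2.96 FPKM in knockout against 4.84 ± 1.94 FPKM in wild type). The same held at rest for Cyr61 (35.8 ± 11.6 against 13.6 ± 7.36 FPKM) and Ier5 (6.82 ± 2.51 against 3.71 ± 0.206 FPKM). How many of all tested genes were that far apart was not counted, so these cases only describe levels.

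**Figure D4:**
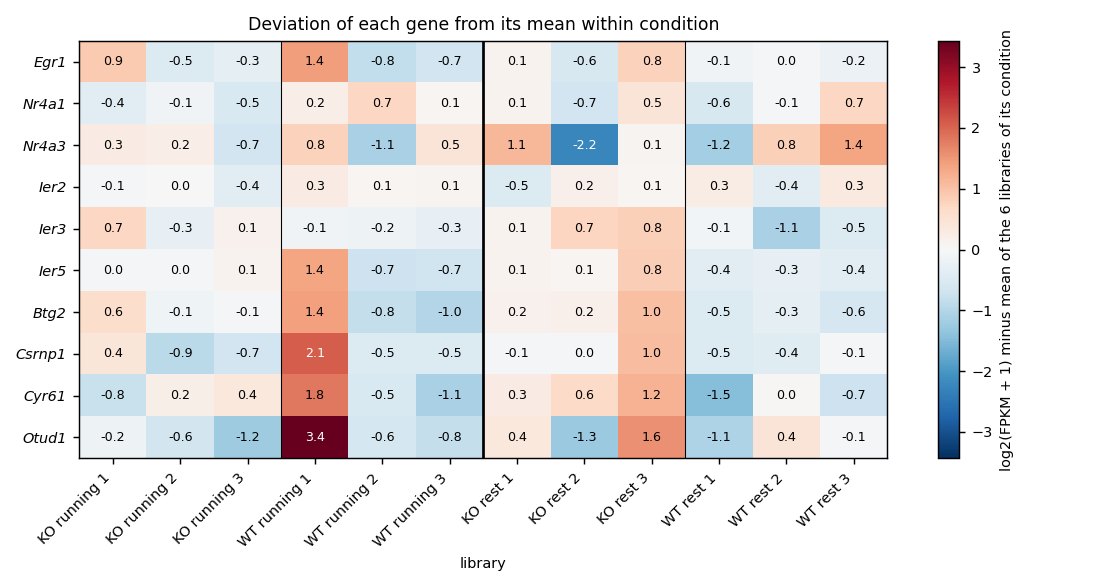
Deviation of each gene from the mean of the 6 libraries of its condition, on the log2(FPKM + 1) scale, for 12 libraries in columns with numbers in the cells. The column of wild-type running library 1 is positive for all genes but Ier3 and reaches 3.4 for Otud1, and knockout resting library 3 is positive in every row.

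Ier5, Btg2, Csrnp1, Cyr61 and Otud1, grouped here after their values were seen, had like profiles across libraries, and Nr4a1, Nr4a3 and Ier3 were less like them. After centring on each condition's mean, pairwise Pearson correlations among those 5 over 12 libraries lay between 0.64 and 0.95, with Btg2 and Ier5 the closest pair. Ier3 correlated with Btg2 at 0.55 and with Nr4a3 at -0.43, and Nr4a1 with Nr4a3 at 0.51. The points share their libraries, and the mean profile was highest in wild-type running library 1 (1.58) and knockout resting library 3 (1.18). The 5 other genes closest to the mean standardised profile of the 8 genes tested in both conditions were Fos (r = 0.97), Sipa1l2 (0.92), Thoc6 (0.91), Cryab (0.89) and Zbtb21 (0.88), over 12 libraries. Fos is a subunit of AP-1 and Cryab encodes the small heat shock protein alpha-B crystallin.

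Fos, of the AP-1 and ATF3 factors, had the same high libraries. It measured 9.95, 5.96 and 4.04 FPKM in knockout after running, against 62.5, 2.94 and 1.64 FPKM in wild type, and 10.4, 7.01 and 46.5 FPKM in knockout at rest, against 1.18, 1.93 and 3.48 FPKM in wild type. limma called 0 of 7 tested factors in either condition, against 3.73% of all tested genes after running and 4.72% at rest. Of the 7, 0 and 1 had an unadjusted p under 0.05, against 19.9% and 21.5%. The authors' deposited table called 3 lower after running, against 4.91%, and 2 higher at rest, against 5.9%. Its other shares were 4.66% higher after running and 4.94% lower at rest. All these shares also apply to the lists that follow. Their median log2 difference was -0.26 after running and 0.21 at rest.

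Close relatives of the set were mostly too low to test. Of 15 paralogs 6 were tested in each condition, and limma called 0 after running and 0 at rest (0 and 3 with an unadjusted p under 0.05). The authors' deposited table called 3 of the 6 higher (Tob1, Tob2 and Ctgf) and 1 lower (Btg1) at rest, and 0 after running. Egr4 was listed at 0 in all 12 libraries. Tob1, an antiproliferative relative of Btg2, was the most abundant, at 51.2 ± 1.32 FPKM in knockout and 51.6 ± 13.0 FPKM in wild type after running, and 76.5 ± 12.8 FPKM in knockout and 54.8 ± 7.71 FPKM in wild type at rest (SD, n = 3 each). Its relative Tob2 measured 24.2 ± 12.6 FPKM in knockout and 11.8 ± 3.74 FPKM in wild type at rest (limma adjusted p = 0.323).

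Among 24 upstream kinases and factors of these genes, limma called 1 of 21 tested higher in knockout after running, against 1.58% of all tested genes. It called 0 lower, against 2.15%, and 0 of 22 at rest, against 4.72%. In each condition 6 had an unadjusted p under 0.05, against 19.9% of all tested genes after running and 21.5% at rest. The authors' deposited table called 1 higher and 1 lower (Srf) after running, and 0 higher and 2 lower at rest (Srf and Mkl1). Srf encodes serum response factor and was named after its values were seen. It measured 6.79 ± 1.84 FPKM in knockout and 11.2 ± 2.16 FPKM in wild type after running (SD, n = 3 each). At rest Srf measured 6.37 ± 0.92 and 10.0 ± 2.98 FPKM. The authors' q was 0.00132 and 0.0046, and limma called Srf in neither condition (adjusted p = 0.142 and 0.185). Camk2d, a subunit of the calcium- and calmodulin-dependent kinase II, was the gene higher in knockout than in wild type after running, at 18.2, 19.2 and 16.9 FPKM in knockout, against 11.0, 9.38 and 13.2 FPKM in wild type (log2 difference 0.66, SE 0.14, limma adjusted p = 0.0488). It lost the call in each of the 6 fits with 1 library left out (adjusted p 0.0582 to 0.146). At rest Camk2d measured 15.95 ± 0.46 FPKM in knockout and 11.98 ± 1.14 FPKM in wild type (SD, n = 3 each), a log2 difference of 0.39 (SE 0.10, limma unadjusted p = 0.00659, adjusted p = 0.0848). Of 19 feedback inhibitors limma called 0 of 13 tested after running and 0 of 12 at rest (4 and 2 with an unadjusted p under 0.05). The authors' deposited table called 0 higher and 2 lower after running, and 3 higher and 2 lower at rest. Dusp1, a phosphatase that switches off MAP kinases, measured 58.6 ± 28.8 FPKM in knockout and 28.8 ± 6.85 FPKM in wild type at rest (SD, n = 3 each), with overlap. After running Dusp1 measured 37.1 ± 16.9 FPKM in knockout and 42.8 ± 4.48 FPKM in wild type, also with overlap. Its knockout effects differed between conditions by -1.18 (SE 0.52, limma unadjusted p = 0.0433, adjusted p = 0.915). Dusp10, a phosphatase of the same family, measured 7.62 ± 2.51 FPKM in knockout and 12.1 ± 5.58 FPKM in wild type after running.

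Other targets of YAP and MRTF, beside Cyr61, gave 0 limma calls among 9 tested in either condition (1 after running and 3 at rest with an unadjusted p under 0.05). The authors' deposited table called 1 lower after running (Ankrd1) and 3 higher at rest. Their most abundant members were Tpm1, a muscle tropomyosin with 11939 ± 1727 FPKM in knockout and 14987 ± 589 FPKM in wild type after running, and beta-actin, Actb, with 133 ± 5.82 FPKM in knockout and 108 ± 20.9 FPKM in wild type (SD, n = 3 each). Ankrd1, a stretch-responsive cardiac ankyrin repeat protein named after its values were seen, measured 55.1, 40.7 and 26.2 FPKM in knockout after running, against 356.5, 29.8 and 64.8 FPKM in wild type. Its high library was again wild-type library 1.

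Markers of other cell types were read beside these values, since in bulk tissue more cells of a type and more RNA per cell cannot be told apart. Summed over 8 endothelial markers, levels were 73.3 to 108 FPKM in knockout and 86.6 to 115.8 FPKM in wild type after running, with the highest value in wild-type library 1. At rest they were 89.8 to 98.0 FPKM in knockout and 83.0 to 94.2 FPKM in wild type. limma called 0 of 8 of them in either condition. The 8 fibroblast markers summed to 283 to 468 FPKM in knockout and 286 to 412 FPKM in wild type after running, and to 295 to 453 FPKM in knockout and 429 to 610 FPKM in wild type at rest (0 of 7 tested called in either condition).

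The 9 immune markers found summed to 52.2 to 383 FPKM in knockout and 35.5 to 41.0 FPKM in wild type after running. At rest they summed to 35.4 to 69.8 FPKM in knockout and 58.4 to 527 FPKM in wild type. The wide ranges came from S100a8 and S100a9, at 156 and 148 FPKM in knockout running library 3 and at 239.5 and 222 FPKM in wild-type resting library 2. Without them the other 7 summed to 50.02 to 78.6 FPKM in knockout and 24.5 to 39.1 FPKM in wild type after running, without overlap, and to 32.0 to 62.4 FPKM in knockout and 49.0 to 65.4 FPKM in wild type at rest. The authors' deposited table called 5 of 5 tested immune markers higher in knockout after running (Cd68, Csf1r, Lyz2, S100a8 and S100a9). It called 2 of 6 lower at rest, and these were S100a8 and S100a9, the genes with the single high libraries named above. limma called 1 of 5 higher in knockout after running (Cd68, adjusted p = 0.0372, and 0.0389 to 0.109 with 1 library left out) and 0 of 6 at rest, and Cd52 was listed at 0 in 3 of 12 libraries. Of 5 smooth muscle markers 4 were tested and 1, Des, which skeletal muscle also expresses, was called higher in both conditions (limma adjusted p = 0.0379 after running, 0.0698 to 0.0982 with 1 library left out, and 0.0271 at rest, 0.0221 to 0.118). Their sums were 956 to 1130 FPKM in knockout and 536 to 721 FPKM in wild type after running, and 908 to 1136 FPKM in knockout and 451 to 656 FPKM in wild type at rest. Des made up nearly all of these sums. The other 4 summed to 31.1 to 31.6 FPKM in knockout and 31.8 to 40.5 FPKM in wild type after running, lower in knockout, and to 29.4 to 40.8 FPKM in knockout and 28.7 to 30.7 FPKM in wild type at rest, with overlap. Of the 6 corepressor genes, limma called Hdac3 lower in both conditions, and Tbl1x and Tbl1xr1, its partner subunits, higher at rest (adjusted p = 0.0271 and 0.022). The part of these cell types in the values above was not tested.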

How the data were processed

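The 12 RNA-seq libraries of quadriceps muscle were used. GRO-seq, with 4 libraries, was not analysed here. FPKM values per library were deposited by the authors in 1 table per condition, and TopHat2, Bowtie, Cuffdiff and HOMER with genome build mm9 are named per the submitters' processing notes. Versions, annotation, strandedness and normalization settings are not given in the sources used here. The p-values and q-values deposited by the authors are their comparison of the genotypes, and the smallest p was 5e-05 in each table. The condition of a table was taken from its own name and libraries were matched by genotype and replicate number. For running, 27 rows with names turned into dates or repeated were left out. Rows with a deposited p under 1 were taken as tested (9037 after running, 9204 at rest). Whole reads could not be recovered from low values: log2 ratios of small RNA genes had a median interquartile range of 0.93 over 30 library pairs. No 2 libraries shared more than 1 identical value, so each was counted once.

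limma 3.58.1 in R 4.3.3 was run on log2(FPKM + 1) with the variance trend option and two-sided tests, within each table and, for the difference of knockout effects, over 12 libraries. Benjamini-Hochberg adjustment covered all genes tested, with a threshold of 0.05. Log2 differences are knockout minus wild type on that scale, on which changes of low genes come out too small. The fits were checked on simulated data with normally distributed noise. That check had no single libraries set far apart as seen here, so it does not cover them. All 10 genes were described. From the other lists up to 3 called members, or else the 2 of highest mean FPKM, were named. Further members, such as Ankrd1 and Srf, were named after their values were seen. Likeness used Pearson correlations after centring within condition. The genes and lists were chosen with earlier results of these data known. Alternatives were another pseudocount, other filters, median-ratio scaling, no variance trend, a replicate block, 1 fit over 12 libraries, the authors' q and leaving out libraries.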

Additional observations from a re-analysis of the deposited data

How the results depend on the processing

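The number of genes called after running was 337, against 109 with no filter on low values, 592 with 1 fit over 12 libraries, 865 by the authors' deposited q and 70 to 103 with 1 library left out. At rest it was 434, against 247 with no such filter, 678 with 1 fit over 12 libraries, 998 by that q and 20 to 292 with 1 library left out, the 20 without wild-type replicate 2. Over all tested genes, same-numbered libraries did not deviate together (r from -0.329 to 0.049). With a replicate block the counts were 170 after running and 52 at rest. Single genes could differ from this. That block lowered the running SE from 0.62 to 0.24 for Egr1 and from 0.68 to 0.28 for Csrnp1. In limma Csrnp1 then had an unadjusted p of 0.0268 (adjusted p = 0.234), and Nr4a1 an adjusted p of 0.0672. At rest the adjusted p rose to 0.139 for Ier3 and 0.127 for Btg2, and fell to 0.0738 for Cyr61. Of the genes described here, 0 were called by limma under any setting but 1 fit over 12 libraries, which called 1 at rest (Ier3), and the authors' deposited q called 4 after running and 6 at rest. The difference of knockout effects gave 0 calls, and 0 to 1 with 1 library left out. With the authors' group means the running log2 difference changed sign for Egr1 (-0.21), Ier5 (-0.32) and Btg2 (-0.13). Leaving out 1 library also changed signs. After running the ranges were -0.39 to 0.78 for Egr1, -0.67 to 0.28 for Nr4a3, -0.32 to 0.71 for Ier5, -0.15 to 1.04 for Btg2, -1.20 to 0.071 for Csrnp1, -0.70 to 0.76 for Cyr61 and -2.09 to 0.033 for Otud1. At rest they were -0.36 to 0.28 for Nr4a1, -1.43 to 0.28 for Nr4a3 and -0.22 to 1.20 for Otud1. For the difference of effects they were -0.62 to 0.88 for Egr1, -0.37 to 1.34 for Nr4a3, -1.01 to 0.27 for Ier5, -1.07 to 0.42 for Btg2 and -2.55 to 0.25 for Otud1, including a fit without both wild-type running replicate 1 and knockout resting replicate 3 that was chosen after seeing the data. Marker sums without Des or without S100a8 and S100a9, and group order without wild-type running replicate 1, were also added after seeing the data. Nr4a1 and Ier3 after running, and Ier3, Ier5, Btg2, Csrnp1 and Cyr61 at rest, kept their direction with each library left out. Groups that do not overlap must keep their direction, so of these only Ier3 after running was open to change. The cause of these changes was not tested. Read depth was unknown, which limits what can be said of genes near 1 FPKM, such as Ier2 and Egr1.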
